A study of Drosophila melanogaster with 12 samples.

Results

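The cytochrome P450 genes of Drosophila melanogaster were followed in larval eye discs that expressed a microRNA, a cell-cycle transcription factor or both. The genes were taken by symbol, as every gene of the authors' deposited table whose symbol begins with Cyp and a digit, which gave 84 of the 13281 genes listed. One of the 84, Cyp1, encodes a cyclophilin, a protein-folding enzyme that shares only the prefix, and its log2 changes of -0.02, 0.05 and -0.03 in that table are given here once and not used further. The other 83 are P450 genes of 20 families and 44 subfamilies, and 4 of them carry the suffix Psi, which marks a pseudogene.

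Cytochrome P450s are haem enzymes that insert oxygen into small lipophilic molecules, with electrons passed on from a reductase. Insects use them in 2 broad ways. Some build or break down the animal's own signals and surface lipids, such as the moulting hormone ecdysone and the waxy hydrocarbons of the cuticle, and others detoxify plant compounds and insecticides, mostly in gut, fat body and Malpighian tubule. The detoxifying genes have multiplied into clusters of neighbouring copies, and the family is sorted into the CYP2, CYP3, CYP4 and mitochondrial clans, which here held 4, 40, 32 and 7 genes.

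The study compared 4 genotypes with 3 biological replicates each, 12 Affymetrix arrays in all. The control was GMR-Gal4/+, the miR-11 genotype was GMR-Gal4/UAS-miR-11, the dE2F1/dDP genotype was GMR-Gal4/+; UAS-dE2F1,UAS-dDP/+, and the genotype with both combined GMR-Gal4/UAS-miR-11 on one chromosome with UAS-dE2F1,UAS-dDP/+ on another. GMR-Gal4, carried by every animal including the controls, drives the UAS transgenes behind the morphogenetic furrow, so a disc mixes cells with and without transgene expression. miR-11 is a microRNA, and dE2F1 with its partner dDP is the activating E2F transcription factor of flies. Larvae were at the third instar and were raised at 25 °C, and no strain background of the transgenes is given in the sources used here, so transgene and strain background cannot be told apart. The discs were extracted whole, so a change in the number of cells of a type and a change in RNA per cell cannot be told apart either.

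Each comparison below sets one transgenic genotype against the control and uses the authors' rank product results: the average log2 fold change, a one-sided p for each direction, and the pfp, an estimate of the share of false positives among the genes ranked as high or higher. Genes with a pfp under 0.05 on the side to which they changed were called higher or lower. The 3 comparisons share the same 3 control arrays, so their values are set side by side and their likeness is not read as repetition. The table gives no value per array, and the array values carry probe set numbers without gene names, which were not assigned from the values themselves. Levels of single genes per array, an SD per gene, and a check of the disc label against the level of eye disc genes are therefore not given here, and all values below are differences from the control. Over all probe sets, array means lay between 5.96 and 6.02 on the log2 scale and array medians between 4.71 and 4.90. The first principal component, with 63.1% of the variance, ran from -9.33 to 49.8 in the control, from -34.0 to 83.3 with miR-11, from -49.9 to 34.4 with dE2F1/dDP and from -30.1 to 1.69 with both, so arrays of 1 genotype lay far apart and the genotypes overlapped. The arrays highest on it were replicate 3 of miR-11 (83.3), replicate 1 of the control (49.8) and replicate 3 of dE2F1/dDP (34.4). They also had the highest medians, 4.90, 4.87 and 4.85. The bearing of this on the fold changes was not tested.

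Of the 83 P450 genes, 4 were called in at least 1 genotype: Cyp6a17 and Cyp6a13 only as higher, and Cyp4g1 and Cyp4p2 only as lower. With miR-11, 1 P450 gene was called higher, which is 1.2% of the family against 0.309% of all genes, and 1 was called lower against 0.143% of all genes. With dE2F1/dDP, 1 was called higher against 0.136% of all genes in the authors' deposited table, and 1 lower against 0.211%. With both transgenes, 1 was called higher against 0.233% of all genes, and 2, or 2.41% of the family, were called lower against 0.617%. With 1 or 2 genes behind each share, these counts say which genes moved and not how the family compares with others.

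The family as a whole had no common direction. In the authors' deposited table the median log2 change of the 83 genes was -0.01 with miR-11, -0.07 with dE2F1/dDP and -0.03 in the genotype with both, beside -0.03, -0.03 and -0.03 over all genes. Positive changes were listed for 41, 30 and 36 of the 83 in the same order. These were 49.4%, 36.1% and 43.4% of the family, against 43.0%, 42.9% and 44.1% of all genes. Most members stayed near the control: 62, 60 and 60 of the 83 had a log2 change within 0.25 of 0, or 74.7%, 72.3% and 72.3%, where the shares of all genes were 81.8%, 65.2% and 68.3%. All 4 pseudogenes were within that range in every comparison.

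Changes of at least 0.5 on the log2 scale, called or not, were counted next. With miR-11, 9 P450 genes (10.8%) lay that far above the control, against 2.28% of all genes in the authors' deposited table, and 7 (8.43%) that far below, against 2.03%. With dE2F1/dDP the order was the other way round on the high side: 2 genes (2.41%) against 7.67% of all genes, with 6 (7.23%) against 4.48% on the low side. With both transgenes 5 genes (6.02%) lay at least 0.5 above the control against 5.77% of all genes, and 7 (8.43%) at least 0.5 below against 4.1%. By the authors' one-sided p under 0.05, unadjusted, miR-11 gave 10 higher and 9 lower P450 genes (12% and 10.8%), against 3.52% and 3.41% of all genes. At that p dE2F1/dDP gave 1 and 6 (1.2% and 7.23%), against 6.03% and 6.85% of all genes. The genotype with both gave 9 and 10 (10.8% and 12%), against 7.4% and 7.08% of all genes. These are descriptions of a list, and no test of the family against other genes was made.

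**Figure D1:**
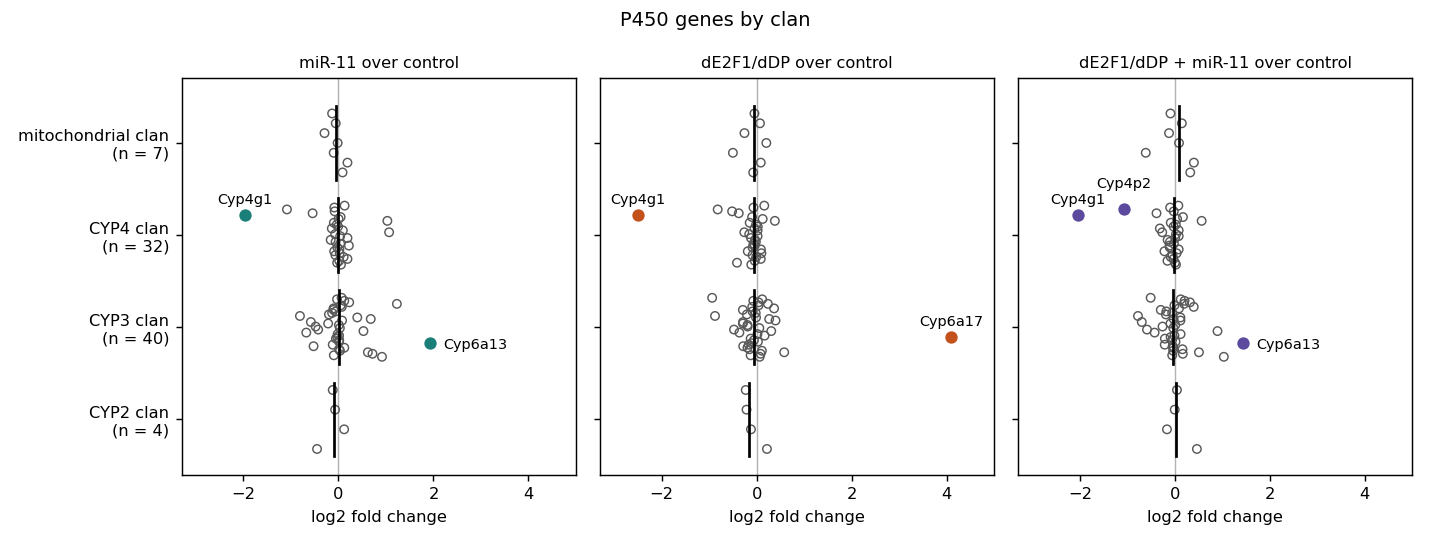
Log2 fold change over control (horizontal axis) of each of the 83 P450 genes, grouped by clan (vertical axis), in 1 panel per transgenic genotype, from the authors' deposited table. Filled named points are genes called at a pfp under 0.05, open points were not called, and black bars are clan medians, which all lie near 0 while single genes such as Cyp6a17 (4.09) and Cyp4g1 (-2.50) stand far out.

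Cyp6a17 (FBgn0015714) gave the largest difference. It belongs to the CYP3 clan, in which most of the detoxifying P450s lie, and is known in flies for an effect on temperature preference and for alleles that some strains have lost. In the authors' deposited table its log2 change was -0.02 with miR-11, 4.09 with dE2F1/dDP and -0.09 in the genotype with both transgenes. It was therefore 17-fold higher with dE2F1/dDP (pfp listed as 0) and ranked 1 of 13281 by fold change, while the other two genotypes lay at the control level to within 0.1. Between the genotype with both and the one with dE2F1/dDP alone the difference in that table comes to -4.18 on the log2 scale. That difference was not tested, because probe sets were not given gene names from their values.

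Cyp6a13 (FBgn0033304), of the same subfamily, had the other pattern. No role in flies is given for it here. Its log2 change in the authors' deposited table was 1.93 with miR-11, -0.11 with dE2F1/dDP and 1.44 in the genotype with both. It rose 3.82-fold with miR-11 (pfp 0.0114) and 2.71-fold with both (pfp 0.018), and was not called with dE2F1/dDP. So the gene was high in both genotypes that carry UAS-miR-11 and at the control level in the one without it, whereas Cyp6a17 was high in the one transgenic genotype without UAS-miR-11. The difference between both transgenes and dE2F1/dDP alone was 1.54 in the same table, untested.

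The other 12 members of subfamily Cyp6a were not called in any comparison. Across the 14 members the median log2 change in the authors' deposited table was -0.00, -0.08 and -0.05 with miR-11, dE2F1/dDP and both. Cyp6a20, a gene with a role in fly aggression, had log2 changes of 0.53, 0.31 and 0.90 there (pfp 0.1388 in the last). Cyp6a2, which phenobarbital induces and which can metabolise insecticides, stood at -0.68, -0.36 and -0.43, the lowest of the subfamily with miR-11. Cyp6a21, the lowest with dE2F1/dDP and with both, was listed at -0.43, -0.48 and -0.59 by the authors' deposited table. Cyp6a23, a near copy of Cyp6a17, had -0.48, -0.19 and -0.26, so it did not share the rise of its relative. How the authors' probe sets separate near copies is not given in the sources used here, and values of close relatives are uncertain to that extent.

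By gene order in a RefSeq gene table, Cyp6a17 sits in a run of 9 P450 genes on chromosome arm 2R, from Cyp6a22 through Cyp6a17, Cyp6a23, Cyp6a19, Cyp6a9, Cyp6a20, Cyp6a21 and Cyp6a8 to Cyp317a1. With dE2F1/dDP the other 8 had log2 changes between -0.48 and 0.31 in the authors' deposited table, with a median of -0.18, and none was called. Its immediate neighbours Cyp6a22 and Cyp6a23 had 0.06 and -0.19 in that genotype. In the other two genotypes the 8 ranged from -0.48 to 0.53 with miR-11 and from -0.59 to 0.90 with both, with Cyp6a20 on top each time. Cyp6a13 lies elsewhere on the same arm, beside Cyp6a15Psi and Cyp6a14, whose log2 changes in the authors' deposited table were 0.02 and 0.01 with miR-11 and -0.06 and 0.01 with both. The changes of Cyp6a17 and Cyp6a13 were thus not shared by the P450 genes next to them.

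**Figure D2:**
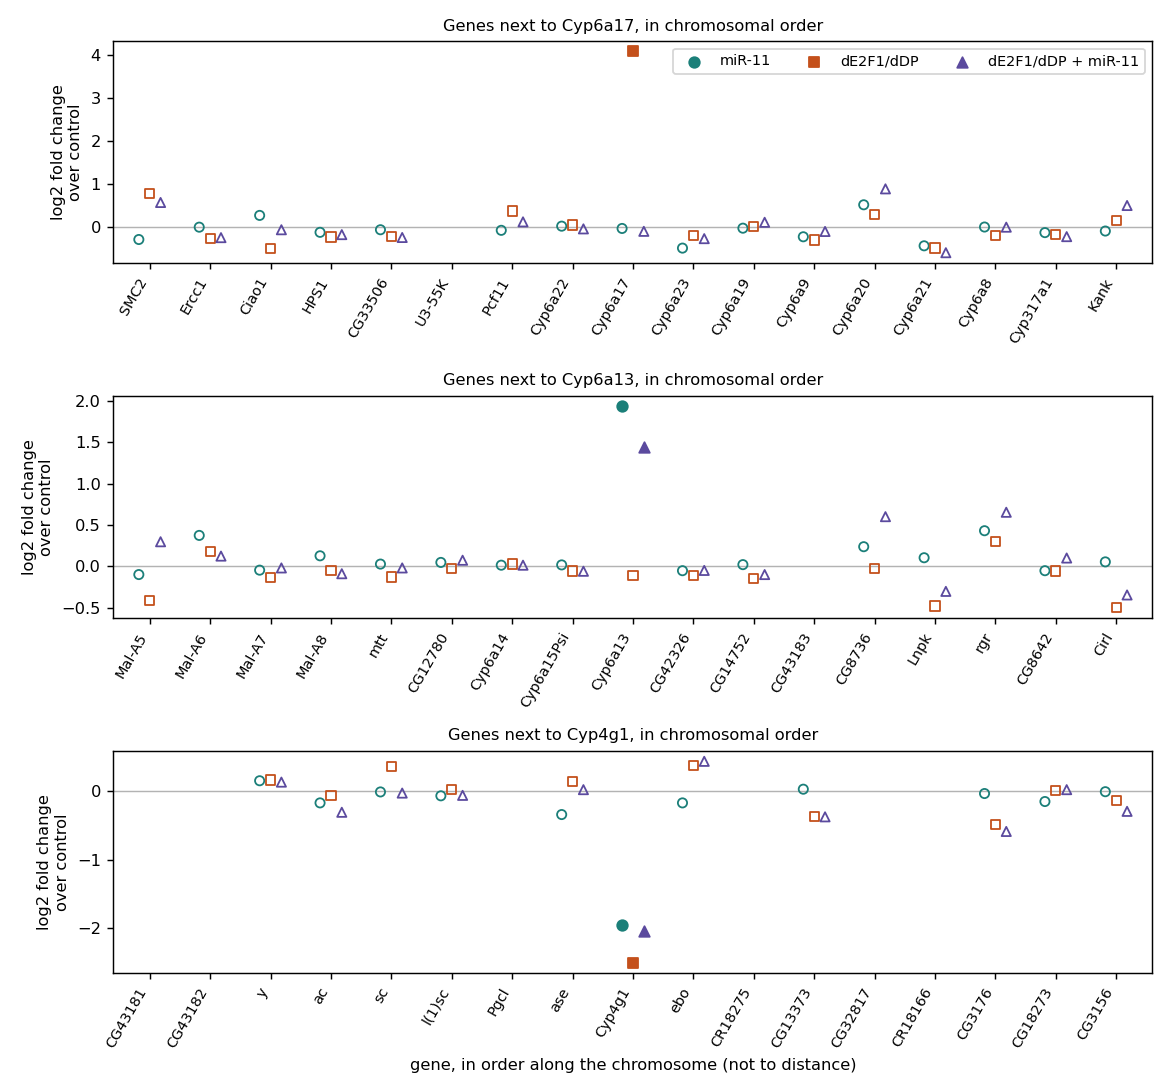
Log2 fold change over control (vertical axes) of the genes on either side of Cyp6a17, Cyp6a13 and Cyp4g1, in chromosomal order (horizontal axes, not to distance), from the authors' deposited table. Colours and shapes give the genotype, filled points were called at a pfp under 0.05, genes with no value there have no point, and the centre gene is the one called gene in each panel.

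Outside Cyp6a, no gene of the CYP3 clan was called, and the clan's 40 genes had medians of 0.01, -0.06 and -0.03 in the authors' deposited table. By unadjusted one-sided p under 0.05 the clan gave 8 higher and 6 lower genes with miR-11 (20% and 15% of the clan, against 3.52% and 3.41% of all genes). With dE2F1/dDP it gave 1 and 2 (2.5% and 5%, against 6.03% and 6.85%), and with both 5 and 5 (12.5% each, against 7.4% and 7.08%). Cyp9b2 came nearest to the threshold without passing it. Its log2 change in the authors' deposited table was 1.23 with miR-11 (2.35-fold, pfp 0.0771), 0.24 with dE2F1/dDP and 0.19 with both. Its neighbour Cyp9b1 was listed at 0.05, 0.04 and -0.01, so the members of that pair differed.

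The Cyp28 genes of the same clan are relatives of P450s that desert flies use against cactus toxins, and none of the 4 was called. Cyp28a5 had log2 changes of 0.92, 0.06 and 1.03 in the authors' deposited table (pfp 0.1051 with both). The neighbouring pair Cyp28d1 and Cyp28d2 had 0.72 and 0.62 with miR-11, 0.08 and 0.58 with dE2F1/dDP, and 0.17 and 0.51 with both. Cyp28c1, the remaining member of the family, was slightly below the control in each genotype, listed at -0.10, -0.13 and -0.06 by the authors' deposited table.

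Among the insecticide genes, Cyp6g1, whose overexpression gives resistance to DDT, had log2 changes of 0.40, -0.01 and 0.12 in the authors' deposited table. Cyp6g2, which can also confer resistance when overexpressed, stood on the other side at -0.81, -0.88 and -0.78 (pfp 0.2041 with dE2F1/dDP and 0.1321 with both), and was not called. Cyp6w1, another gene linked to DDT, had 0.07, -0.09 and 0.40 there. In subfamily Cyp6d the authors' deposited table puts Cyp6d5 at 0.68, 0.26 and -0.03, Cyp6d2 at -0.58, -0.29 and -0.70, and Cyp6d4 at 0.08, 0.40 and 0.12, so its 3 members did not move as one. Cyp9h1 was at 0.07, -0.94 and -0.51 (pfp 0.1807 with dE2F1/dDP). Cyp310a1 had -0.52, -0.28 and -0.05 and Cyp9f2 0.12, -0.07 and 0.20 in the authors' deposited table. The 3 Cyp6t genes, among them Cyp6t3, which has a reported role in ecdysone synthesis, lay between -0.21 and -0.02 over the 3 comparisons.

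Cyp4g1 (FBgn0010019), of the CYP4 clan, was the one P450 gene called in all 3 genotypes. It encodes the insect decarbonylase that makes cuticular hydrocarbons from aldehydes, and its known main site is the oenocyte, a cell of the body wall. The log2 change in the authors' deposited table was -1.96 with miR-11, -2.50 with dE2F1/dDP and -2.04 in the genotype with both. In folds the gene was 3.89-fold lower (pfp listed as 0), 5.67-fold lower (pfp listed as 0) and 4.10-fold lower (pfp 0.0014), and it ranked 4, 5 and 7 from the bottom of all genes. The 3 genotypes lay within 0.6 of each other, and since each was set against the same control arrays, a high level in those arrays and a low level in every transgenic genotype cannot be told apart. Relative to that of dE2F1/dDP alone, the change with both was 0.47 higher in the same table, a difference that was not tested.

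No other gene of hydrocarbon synthesis or oenocytes among those listed was called. Cyp4g15, the other Cyp4g gene, known from the nervous system, had log2 changes of -0.54, -0.38 and -0.39 by the authors' deposited table. Of 21 other genes of hydrocarbon and very long chain fatty acid synthesis, none was called, with medians of -0.07, -0.06 and -0.04, and unadjusted one-sided p values under 0.05 for 1 higher and 2 lower, 1 and 0, and 2 and 0. The shares of all genes at that p were 3.52% higher and 3.41% lower, 6.03% and 6.85%, and 7.4% and 7.08%. The log2 changes of the 21 in the authors' deposited table ran from -0.59 (CG11198 with miR-11) to 0.74 (CG3523 with both). Of 8 oenocyte markers other than Cyp4g1, none was called, 1 had an unadjusted one-sided p under 0.05 (higher with miR-11), and their log2 changes in the authors' deposited table lay between -0.38 and 0.39. The lists share 5 genes, among them CG6921, which is the one higher at that p with miR-11 in each list. The neighbours of Cyp4g1 on the X chromosome, ase before it and ebo after it in RefSeq order, were also not called.

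**Figure D3:**
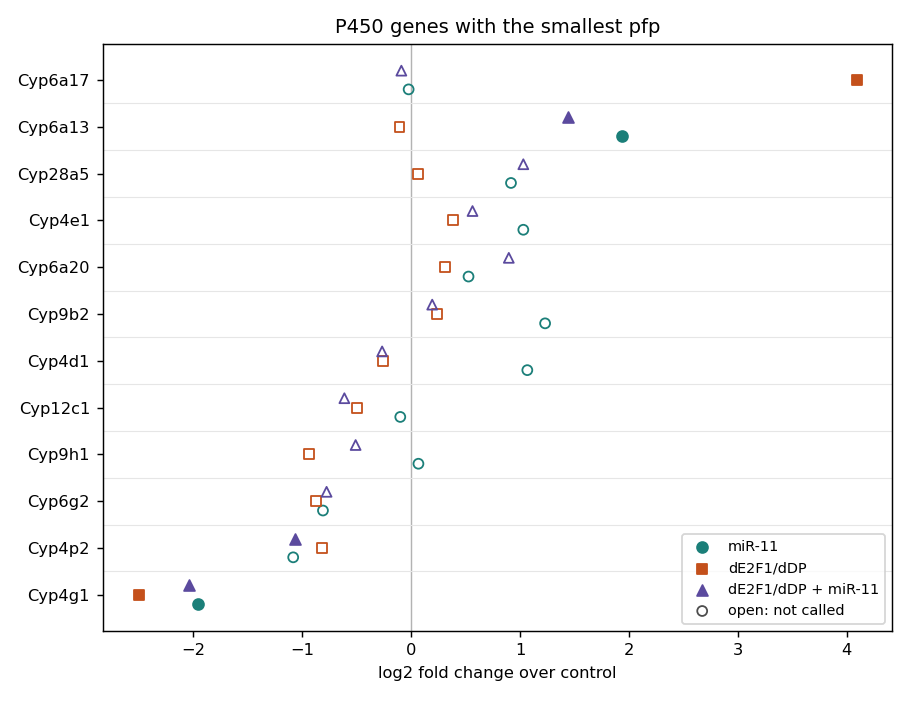
Log2 fold change over control (horizontal axis) of the 12 P450 genes that were among the 6 smallest pfp values of the family in at least 1 comparison (vertical axis), from the authors' deposited table. Filled symbols were called at a pfp under 0.05: Cyp6a17 with dE2F1/dDP, Cyp6a13 with miR-11 and with both, Cyp4p2 with both, and Cyp4g1 in all 3 genotypes.

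Cyp4p2 (FBgn0033395) was the other P450 gene called lower. In the authors' deposited table its log2 change was -1.08 with miR-11 (pfp 0.1623), -0.82 with dE2F1/dDP (pfp 0.3108) and -1.07 in the genotype with both (pfp 0.0231). It passed the threshold with both transgenes, 2.09-fold lower, although the size with miR-11 was like it, so the call does not separate the genotypes. Its relatives Cyp4p1 and Cyp4p3 had -0.08 and -0.09 with miR-11, -0.52 and -0.07 with dE2F1/dDP, and -0.02 and -0.10 with both, again by the authors' deposited table.

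A pair of genes of the CYP4 clan stood higher with miR-11 without being called, and differed in the other genotypes. Cyp4e1 had log2 changes of 1.03 (pfp 0.1448), 0.38 and 0.56 in the authors' deposited table. Cyp4d1 had 1.07 (pfp 0.1583), -0.26 and -0.27, so its difference between both transgenes and miR-11 alone was -1.33, untested. With miR-11 the one-sided rank product p was 0.0008 for higher and 0.9993 for lower in Cyp4e1, but 0.0009 and 0.3803 in Cyp4d1. The ranks behind the rise of Cyp4d1 were thus less even, and its values per array are not given here. Relatives of both genes were flatter. Cyp4e2 and Cyp4e3, the second of which affects insecticide tolerance through the Malpighian tubule, lay between -0.10 and 0.17 over the 3 comparisons, and the other 5 Cyp4d genes between -0.32 and 0.09 in the authors' deposited table, with Cyp4d2 lowest (-0.32 with both) and Cyp4d14 highest (0.09 with miR-11). Cyp4d21, a gene with a role in male courtship, was listed at -0.04, -0.01 and 0.02.

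The larger subfamilies left in the clan stayed near the control. The 5 Cyp313a genes lay between -0.16 and 0.19 in the authors' deposited table and the 3 Cyp4ac genes between -0.16 and 0.04. The extremes of Cyp313a were Cyp313a2 with miR-11 (0.19) and Cyp313a1 with both (-0.16), and the lowest Cyp4ac value was that of Cyp4ac3 with miR-11. Cyp312a1, alone in its subfamily, was at -0.41 with dE2F1/dDP in the authors' deposited table, not called, and at -0.03 and 0.00 in the other two genotypes. For the 32 genes of the CYP4 clan together the medians were -0.00, -0.06 and -0.03, with 27, 25 and 26 within 0.25 of 0.

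No gene of the CYP2 or mitochondrial clan was called. By unadjusted one-sided p under 0.05 the 4 CYP2 genes gave none with miR-11 or dE2F1/dDP and 1 higher with both, and the 7 mitochondrial genes gave none, 1 lower, and 2 higher with 1 lower. The shares of all genes at that p were 3.52% higher and 3.41% lower, 6.03% and 6.85%, and 7.4% and 7.08%. Cyp18a1, which inactivates ecdysone, had log2 changes of -0.45, 0.22 and 0.46 in the authors' deposited table. Cyp303a1, needed for sensory bristles, was at 0.12, -0.12 and -0.17, and Cyp305a1 at -0.12, -0.23 and 0.04. In the mitochondrial clan, Cyp12c1 had -0.10, -0.50 and -0.61, the lowest values with dE2F1/dDP and with both. With miR-11 the lowest of the clan was Cyp12e1 at -0.29. Cyp12a4, linked to resistance to the insecticide lufenuron, had 0.09, -0.07 and 0.32 and its relative Cyp12a5 0.19, 0.09 and 0.40 in the authors' deposited table. Cyp301a1, which acts in cuticle formation, stayed at -0.06, 0.07 and 0.15, Cyp49a1 at -0.13, -0.05 and -0.09, and Cyp12d1-d, a DDT-inducible gene with a near-identical duplicate, at -0.02, 0.20 and 0.09.

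Several P450s of ecdysone synthesis have names of their own and fall outside the symbol rule. They were listed separately, and 3 of the 6 were called lower with both transgenes against 0.617% of all genes. In the direction of change, the unadjusted one-sided rank product p was under 0.05 for 2, 3 and 3 of the 6, all lower. These were 33.3%, 50% and 50% with miR-11, dE2F1/dDP and both, against 3.41%, 6.85% and 7.08% of all genes. In the authors' deposited table phm, a hydroxylase of the later steps, had log2 changes of -0.76, -0.73 and -1.66 (pfp 0.0024 with both). For spok, which acts in the early steps of the pathway, the values were -1.07, -0.10 and -1.44 (pfp 0.0216), and for sad, another hydroxylase of the later steps, -0.38, -0.35 and -1.07 (pfp 0.032). The one-sided rank product p of spok was low on both sides, 0.0485 for higher and 0.0006 for lower with miR-11, and 0.0504 and 0.0357 with dE2F1/dDP. Its ranks thus reached both ends, and the mean of -0.10 is not read as a lack of change. The other members, dib, shd and spo, lay between -0.16 and 0.21 and were not called. Of 7 further genes of the pathway and its control none was called, and nvd, the enzyme of the first step, had -0.23, -0.24 and -1.21 in the authors' deposited table. With miR-11 the one-sided rank product p of nvd was likewise low on both sides, 0.0558 for higher and 0.0539 for lower. The enzymes phm, sad, spok and nvd are known from the prothoracic gland of the ring gland, and how much of that tissue each sample held was not measured.

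P450 enzymes need electrons, which Cpr supplies in the endoplasmic reticulum and dare with a ferredoxin in mitochondria, while cytochrome b5 proteins can assist. Of 9 such genes, 1 was called, higher with miR-11, against 0.309% of all genes. It was CG6870, a cytochrome b5-like gene, which rose with miR-11 by 2.19 on the log2 scale (pfp 0.0145) in the authors' deposited table and had -0.08 and 0.08 in the other two genotypes. Cpr had log2 changes of -0.24, 0.14 and 0.18 there, and dare -0.23, -0.65 and -0.65, neither called.

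**Figure D4:**
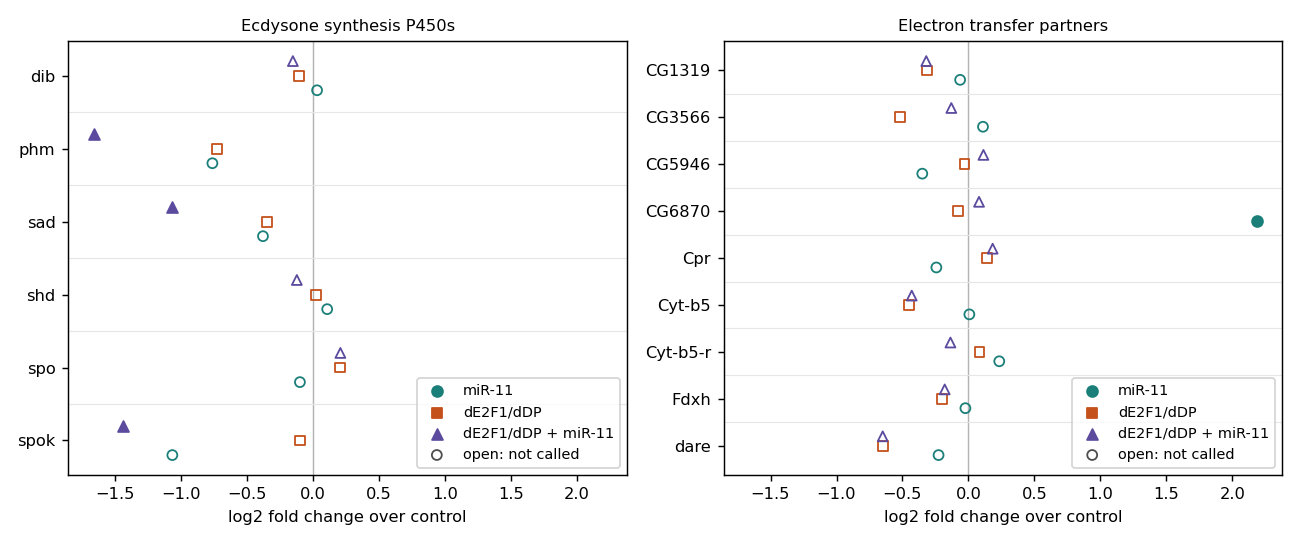
Log2 fold change over control (horizontal axes) of 6 P450 genes of ecdysone synthesis named outside the Cyp pattern (left) and 9 electron transfer genes (right), from the authors' deposited table. Filled symbols were called at a pfp under 0.05: phm, sad and spok with both transgenes, and CG6870 with miR-11.

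Tissues in which detoxifying P450s are common can adhere to a dissected disc, and their markers were read in the same table. With miR-11, where Cyp6a13 rose, 13 of 17 fat body markers had a positive change, with a median log2 change of 0.65 and a range from -1.42 to 1.98 in the authors' deposited table, and 2 were called higher and 1, Obp44a, lower. For the 15 salivary gland markers the median was 1.26 with miR-11, with Pig1, Sgs3 and Sgs4 called higher, and for 11 hemocyte markers it was 0.28, with nimC1 called higher. At an unadjusted one-sided p under 0.05, miR-11 gave 10 higher and 2 lower fat body markers (58.8% and 11.8%). It gave 10 higher salivary gland markers (66.7%) and 3 higher hemocyte markers (27.3%), with none lower. Over all genes 3.52% were higher and 3.41% lower at that p, and 0.309% and 0.143% were called. With both transgenes, where Cyp6a13 also rose, the fat body median was -0.22, with 1 gene called lower. The salivary gland median was -0.95, with 6 genes called lower, and the hemocyte median was 0.30, with nimC1 again called higher. At that p, 4 fat body markers were higher and 8 lower (23.5% and 47.1%), and 10 salivary gland markers were lower (66.7%). Hemocyte markers gave 5 higher and 1 lower. Over all genes 7.4% were higher and 7.08% lower at that p, and 0.233% and 0.617% were called. With dE2F1/dDP, where Cyp6a17 rose, the fat body median was -0.38, the salivary gland median 0.12 and the hemocyte median 0.03. There 1 fat body marker was called lower, and at that p 2 were higher and 6 lower (11.8% and 35.3%). The hemocyte list gave 1 higher. Over all genes 6.03% were higher and 6.85% lower at that p with dE2F1/dDP, and 0.136% and 0.211% were called. The salivary gland markers were spread widely in that genotype, from -1.59 to 1.91 in the authors' deposited table, with 3 called higher (Eig71Ee, Sgs3 and Sgs4) and, at an unadjusted one-sided p under 0.05, 7 higher and 3 lower. The 14 Malpighian tubule markers gave medians of -0.02, -0.12 and -0.04 and no call or unadjusted one-sided p under 0.05 in the authors' deposited table, and the 13 midgut markers 0.03, -0.22 and -0.06 with 1 call, LvpH, higher with miR-11. At that p the midgut list gave 1 higher and 1 lower, 0 and 3, and 1 and 1 genes. For 19 eye disc genes the medians were 0.00, 0.43 and 0.30 with no call, and 0 higher and 1 lower, 3 and 2, and 5 and 1 at an unadjusted one-sided p under 0.05. The part of these tissues in the P450 changes was not tested.

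The non-P450 genes most like each of the leading members were found by the distance between their 3 log2 changes, over 3 comparisons that share 1 control. For Cyp6a17 the nearest were sut2, CG14545 and CG41284, all called higher with dE2F1/dDP in the authors' deposited table. Of these sut2 had -0.05, 1.89 and -0.03, and even sut2 was 2.20 away. CG14545, at -0.29, 2.19 and 1.25, was also called higher with both, and CG41284 had -0.40, 1.51 and 0.66. These last genes thus did not share the flat value of Cyp6a17 with both. For Cyp6a13 they were CG7722 at a distance of 0.665, CG2065 and nimC1, the last a phagocytosis receptor of hemocytes, which had 1.54, 0.69 and 1.31. For Cyp4g1 they were CG31436 at a distance of 0.612, with -1.66, -1.97 and -2.02, CG6129 and CG9686, of which CG31436 and CG6129 were called lower in all 3 genotypes by the authors' deposited table.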

How the data were processed

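Expression was measured on 12 Affymetrix arrays. Each started from 100 ng of total RNA, labelled as biotin cRNA per the labels' protocols, and the submitters' processing notes name affy alone. The authors deposited log2 values per probe set (18952, of which 183 control probe sets were left out here) and a rank product table with an average log2 fold change, one-sided p-values and pfp scores to 4 decimals, per the file headers; its settings were not stated in the labels or headers. pfp is an estimate that can exceed 1. Column letters were read as M for miR-11, ED for dE2F1/dDP and MED for both: all 301 genes that changed by at least 1 (log2, either way) then had a probe set within 0.01 in all 3 changes, against at most 0.664% under other readings.

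Probe sets carry no gene names here, so the planned array fit was not made, and the deposited table supplied every gene value. Folds, medians, counts and differences were computed with Python 3.11.15 and pandas 2.3.3; the counting was tested on simulated data. Depth does not apply to arrays, whose number limits the precision. Members, lists, thresholds and alternatives were chosen with earlier results of these data known. Named genes are Cyp6a17, Cyp6a13, Cyp4g1, every called member, subfamily extremes, genes with known roles, and called members of the other lists, up to 4 each; other members near the threshold or of at least 0.5 in size were named after their values were seen. Clans follow general knowledge of insect P450s. All 84 symbols were found in RefSeq's gene list for assembly Release 6, consulted for names, arms and gene order only.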

Additional observations from a re-analysis of the deposited data

How the results depend on the processing

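The called P450 genes were the same under a Benjamini-Hochberg adjustment of the doubled one-sided p-values and under a 2-fold minimum: 2 with miR-11, 2 with dE2F1/dDP and 3 in the genotype with both. The smallest called change was 2.09-fold, so the 2-fold minimum could remove no call. The adjustment reused the authors' rank product p-values. These were listed as 0 at 4 decimals for every P450 call but that of Cyp4p2 (0.0001), so the adjustment could hardly remove the others. Centring on the median of all genes leaves the pfp as it is, so the same counts under it say nothing about stability. A pfp under 0.1 added Cyp9b2 with miR-11 (3 genes) and left the other counts at 2 and 3. A pfp under 0.01 kept 1 gene with miR-11 and 1 with both, Cyp4g1 each time, so the calls of Cyp6a13 and Cyp4p2 rest on the 0.05 threshold, and kept both with dE2F1/dDP. Over all genes the calls numbered 60, 46 and 113, against 79, 77 and 164 at 0.1 and 18, 18 and 33 at 0.01. The family medians stayed between -0.07 and 0.02 under centring, without pseudogenes and duplicates, and without Cyp6a17, Cyp6a13 and Cyp4g1. No paired analysis was possible because the array values carry no gene names in the files, probe sets were not named from their values, and the deposited table has no values per array; for the same reason quantile normalization, fits of 2 genotypes alone, a filter on dim probe sets, other handling of several probe sets and leaving out single arrays were not run, so whether 1 array decides a call was not tested.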

Other observations

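Other detoxification families were read in the same way. Of 35 glutathione S-transferases, enzymes that conjugate P450 products to glutathione, 1, 2 and 3 were called lower with miR-11, dE2F1/dDP and both, against 0.143%, 0.211% and 0.617% of all genes, and none higher. At an unadjusted one-sided p under 0.05 the list gave 1 higher and 7 lower, 1 and 8, and 1 and 8 genes, the lower ones being 20%, 22.9% and 22.9% of the list against 3.41%, 6.85% and 7.08% of all genes. GstD9 was called lower in all 3, with log2 changes of -1.30, -1.57 and -1.58 in the authors' deposited table. CG1702 had 0.14, -1.62 and -1.02, called lower in the last 2, and GstE5 had -0.31, 0.11 and -1.10, called lower with both. Of 35 UDP-glycosyltransferases and 15 regulators of xenobiotic and oxidative responses none was called. At an unadjusted one-sided p under 0.05 the first list gave 1 higher and 2 lower, 1 and 0, and 3 and 2 genes, and the second 0, 2 and 3 higher and none lower. The shares of all genes higher at that p were 3.52%, 6.03% and 7.4%. The regulators' median log2 changes were -0.04, 0.33 and 0.24 in the authors' deposited table. Of 13 muscle markers, 2, Mhc and Prm, were called higher with both transgenes, against 0.233% of all genes. The list's median was 0.72 with both, beside 0.11 and 0.11 in the other two genotypes.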
